A study of Mus musculus with 22 samples.

Results

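The heat shock and cytosolic chaperone genes are the rows of the testes count table whose symbols begin Hspa, Hsp90a, Hsph1, Hspb, Hspd1, Hspe1, Dnaj, Cct or Hsf, each numbered, without the endoplasmic reticulum chaperone Hspa5. They number 84 of 17931 gene symbols, and 80 had enough counts to be tested. Hsf3, Hsf4, Hspb2 and Hspb3 did not, with at most 12 counts in any library. The rule uses symbols and no measured value. RNA came from whole testes of 3 wild-type (WT) and 3 Mlx knockout (KO) males, age-matched littermates of 7 months. The allele was made in 129S4 embryonic stem cells, and the paper does not state the background of the sequenced animals. The KO allele lacks exons 3 to 6 of Mlx, which encode the dimerization and DNA-binding region, and the deletion, made with Meox2-Cre that was later bred away, is carried by every cell of the animal, somatic as well as germ cells. Since whole testes were sequenced, fewer cells of a type and less RNA per cell cannot be told apart in any value below.

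Chaperones hold, fold and refold other proteins. HSP70 proteins bind exposed stretches of unfolded clients in cycles driven by ATP, J-domain proteins of the DNAJ families deliver the clients and stimulate the cycle, and HSP110 proteins exchange the nucleotide. HSP90 matures kinases and steroid receptors, small heat shock proteins keep clients from aggregating, HSP60 with HSP10 folds proteins in the mitochondrial matrix, and the CCT subunits form the ring that folds actin and tubulin. Heat shock factors (HSFs) induce many of these genes under stress. Male germ cells have chaperones of their own, among them Hspa2, an HSP70 of spermatocytes needed to complete meiosis, Hspa1l, an HSP70 of spermatids, and Hspa4l, an HSP110 abundant in the germ line.

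The chaperone genes split in part by kind in KO testes, by lists chosen with earlier results of these data known. The list counts therefore describe the split and do not test it. Of 14 testis-enriched members 11 were lower (78.6%), and most tested genes of the CCT and DNAJB families were lower. Of 13 members listed as stress-inducible 7 were higher (53.8%) and 3 lower (23.1%). The 7 include Hspa8 and Hsp90ab1, the constitutive HSP70 and HSP90 genes. In edgeR's quasi-likelihood test, with p-values adjusted by the Benjamini-Hochberg method over all 14640 genes tested, 11 of the 80 members (13.8%) rose and 36 (45.0%) fell at an adjusted p under 0.05. Of all genes tested, 24.8% rose and 20.6% fell, 45.4% in either direction. The median log2 fold change (LFC, KO over WT) of the members was -0.16, beside 0.03 for all genes. All 47 called members moved in their called direction in 3 of 3 littermate pairs. These pairs are the libraries that gave the calls, so this is no separate support for them. With library size as the only scaling, which moved the median of all genes from 0.03 to 0.16, 23 members rose (28.8%) and 15 fell (18.8%), beside 36.5% and 8.66% of all genes. All 11 higher calls and 15 of the 36 lower calls were kept under that scaling, while DESeq2's size factors in edgeR gave 11 higher and 39 lower. Many of the decreases thus depend on the scaling, and count ratios within a library, which need none, are given below for 4 pairs of related genes.

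**Figure D1:**
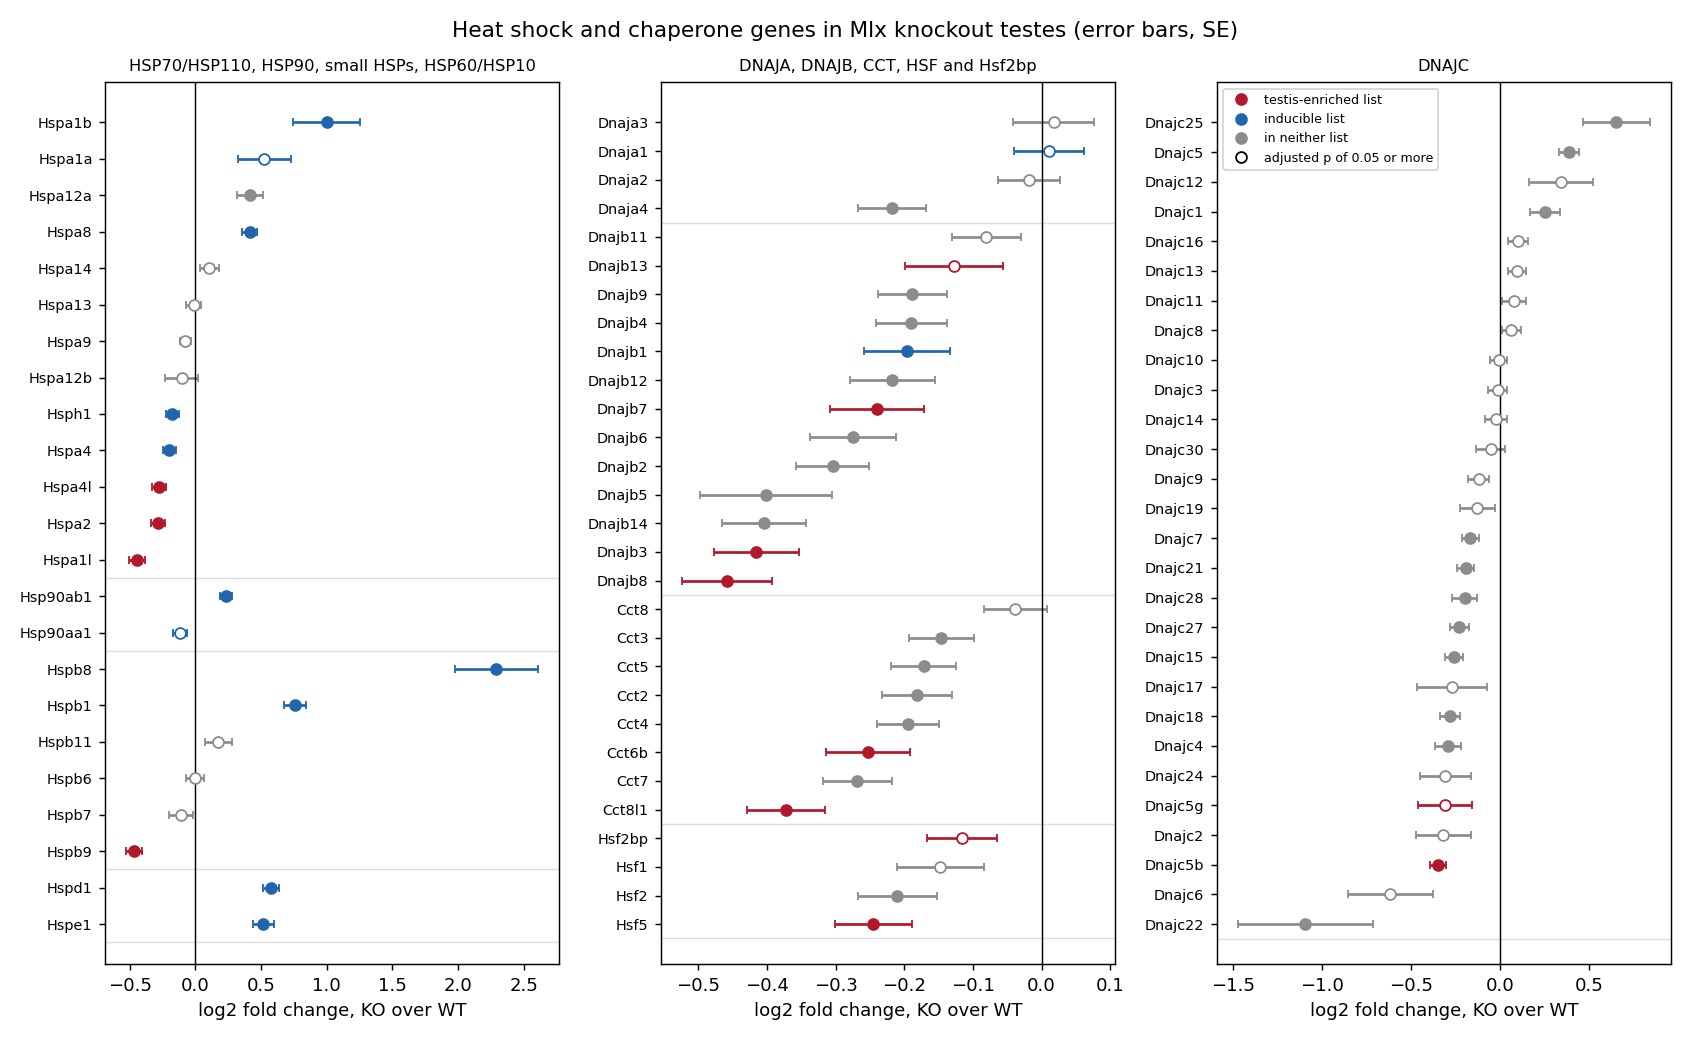
Log2 fold change of the 80 tested members, KO over WT, by family on separate axes (point, edgeR estimate; bar, SE; filled, adjusted p under 0.05; colour, list). Hspb8 lies farthest to the right at 2.29, and the tested DNAJB, CCT and testis-enriched members are all left of 0 (under library size alone Cct8, Dnajb11, Dnajb13 and Hsf2bp lay right of 0).

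Promoter sequences are shown for members at which the heat shock element, the site that HSFs bind, could be looked for directly. The element was searched as 3 alternating units, GAANNTTCNNGAA or TTCNNGAANNTTC, in RefSeq windows of 300 bases, from 250 before to 50 after a transcription start (GRCm38.p6). These forms are reverse complements, so both strands were read. Windows were found for 67 members, among them 10 of the 13 inducible members. Hspa8, Hsp90ab1 and Dnajc5, which rose, and Hsp90aa1 had no window and were not searched. The element lay in 0.603% of the 32851 windows of all genes. Among members it lay in windows of 2 of 8 genes that rose (Hspd1 and Hspe1), 2 of 32 that fell (Dnajb6 and Hsph1) and 0 of 25 that did not pass the test. Counted as windows, like the share over all genes, these were 2 of 10, 4 of 44 and 0 of 30. Some of these windows overlap. The genes that held the element therefore included members that moved in opposite directions. Hspd1 and Hspe1 encode HSP60 and its co-chaperonin HSP10, are transcribed away from each other, and share an element. In the Hspd1 window, at chr1:55087883-55088182 on the minus strand, 2 overlapping matches begin 144 and 139 bases before the start. The Hspe1 window, chr1:55087898-55088197 on the plus strand, holds the same bases read the other way. The Hsph1 window (chr5:149636266-149636565, minus) has its element from base 16 after the start, and the Dnajb6 window (chr5:29735648-29735947, plus) from base 46 before it. Windows of germ-cell genes, Hspa2 (chr12:76404120-76404419, plus) and Hspa1l (chr17:34972453-34972752, plus), are shown for contrast and hold none. Capitals mark the heat shock elements and, in Hsph1, also an E-box (CACGTG), the site that MLX and other proteins of its kind bind.
Hspd1: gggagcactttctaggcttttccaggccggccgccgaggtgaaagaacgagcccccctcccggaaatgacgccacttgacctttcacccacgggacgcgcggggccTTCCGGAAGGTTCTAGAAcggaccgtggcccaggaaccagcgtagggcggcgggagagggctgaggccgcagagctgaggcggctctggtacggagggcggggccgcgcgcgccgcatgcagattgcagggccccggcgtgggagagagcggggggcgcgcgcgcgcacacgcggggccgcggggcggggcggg
Hsph1: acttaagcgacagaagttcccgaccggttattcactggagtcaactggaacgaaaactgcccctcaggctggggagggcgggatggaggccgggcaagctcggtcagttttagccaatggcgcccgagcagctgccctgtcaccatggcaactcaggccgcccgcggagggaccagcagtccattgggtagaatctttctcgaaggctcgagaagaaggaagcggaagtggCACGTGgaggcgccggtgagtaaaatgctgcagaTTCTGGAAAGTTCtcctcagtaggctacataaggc
Dnajb6: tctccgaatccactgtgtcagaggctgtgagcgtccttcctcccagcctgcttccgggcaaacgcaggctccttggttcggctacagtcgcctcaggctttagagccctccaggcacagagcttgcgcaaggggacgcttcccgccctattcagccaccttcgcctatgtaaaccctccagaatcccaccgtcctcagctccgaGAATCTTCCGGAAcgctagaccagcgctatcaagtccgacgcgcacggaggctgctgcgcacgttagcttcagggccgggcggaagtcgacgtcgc
Hspa2: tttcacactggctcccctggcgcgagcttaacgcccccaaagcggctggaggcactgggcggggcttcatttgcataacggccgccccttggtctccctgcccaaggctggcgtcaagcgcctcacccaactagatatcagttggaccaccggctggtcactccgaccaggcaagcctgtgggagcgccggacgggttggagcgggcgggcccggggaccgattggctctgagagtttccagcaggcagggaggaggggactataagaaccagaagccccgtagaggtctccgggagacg
Hspa1l: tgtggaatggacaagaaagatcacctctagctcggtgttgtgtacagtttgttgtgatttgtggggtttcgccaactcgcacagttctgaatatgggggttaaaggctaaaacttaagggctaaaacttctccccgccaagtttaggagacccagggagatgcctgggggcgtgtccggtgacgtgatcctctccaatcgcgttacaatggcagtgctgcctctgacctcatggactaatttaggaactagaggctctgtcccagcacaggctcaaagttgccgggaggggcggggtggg
No match says only that these letters are absent from the window. Hspa1a and Hspa1b, textbook HSF targets, had no match either, and their windows were in the search. An E-box was found in windows of 7.15% of all starts, and among members in those of Dnajc1 and Hspd1, which rose, Dnajb9, Hsf2 and Hsph1, which fell, Dnajc8 and Dnajc16, which did not pass the test, and Hsf3, which was not tested. The cAMP response element, TGACGTCA, bound by the spermatid factor CREM, lay in 1.79% of all windows and in that of 1 member, Dnajc27, which fell.

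Among the cytosolic HSP70 genes, the germ-cell members fell and the constitutive Hspa8 rose. Levels are given as CPM, the counts divided by TMM-adjusted library size and set to a common depth. Hspa2 (chr12:76404176-76406938, plus strand) had 1397, 1469 and 1441 CPM in the WT libraries and 1257, 1130 and 1149 in the KO libraries. Every KO library was below every WT library. The LFC was -0.28 (SE 0.06, adjusted p = 0.00177 in edgeR's quasi-likelihood test). Hspa1l (chr17:34972703-34979285, plus strand) had 910.6, 913.8 and 915.5 CPM in WT and 731.3, 667 and 614.8 CPM in KO libraries. The WT libraries were almost identical and the KO libraries spread over a wider range below them, with an LFC of -0.44 (SE 0.06, adjusted p = 0.000249, same edgeR test). Of its 50-base windows, 71.4% are shared with other genes. The one sharing most is Gm10501, an antisense gene that has no row in the table, and the strand setting of the counting is not given in the sources used here. Hspa4l (chr3:40744495-40796103, plus strand) had 1216, 1250 and 1190 CPM in WT and 1057, 973.2 and 987 in KO libraries. The LFC was -0.28 (SE 0.05, adjusted p = 0.0014, same edgeR test), again without overlap. All 3 germ-cell members kept their calls under each alternative tried, library size alone included, where their median LFC was -0.15.

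Hspa8, the constitutive HSP70 of most cells (HSC70), had 313.5, 300 and 301.1 CPM in WT and 373.8, 419.7 and 425.3 CPM in KO libraries. The KO libraries were all higher, KO1 the least so, and the LFC was 0.41 (SE 0.06, adjusted p = 0.000232, edgeR's quasi-likelihood test). Of the 50-base windows of Hspa8, 39.4% are shared with other genes, most with Gm15459, which has no row in the table. Hspa1b and Hspa1a, the stress-inducible HSP70 genes, were scarce. Hspa1b had 24, 22 and 21 counts in WT and 36, 59 and 49 counts in KO libraries, an LFC of 1.00 (SE 0.25, adjusted p = 0.00794, same edgeR test), which did not pass the threshold in DESeq2 with the replicate block (LFC 0.94). Hspa1a had 50, 28 and 46 counts in WT libraries against 67, 69 and 55 in KO libraries, an LFC of 0.53 (SE 0.20, adjusted p = 0.0549, same edgeR test) that missed the threshold. Of the 50-base windows of Hspa1a 66.3% and of those of Hspa1b 62.3% are shared with other genes, in each case most with the other of the pair. The split of reads between them is therefore uncertain. Their summed level was 3.62 ± 0.386 CPM in WT and 5.97 ± 0.97 CPM in KO testes (SD, n = 3). Hspa1a and Hspa1l are neighbours, with start sites 547 bases apart on opposite strands.

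Within one library, Hspa2, Hspa1l, Hspa8, Hspa1a and Hspa1b divide the cytosolic HSP70 reads between them. Per kb of annotated exon, Hspa2 made up 55.1 ± 0.684% of this pool in WT and 54.8 ± 1.01% in KO testes (SD, n = 3), a move smaller than either SD. By reads without regard to length, its share was 54.0 ± 0.744% in WT and 52.1 ± 1.16% in KO testes (SD, n = 3), a move larger than either SD. Per kb, Hspa1l went from 37.5 ± 0.413% to 33.3 ± 1.42%, and Hspa8 from 7.2 ± 0.269% to 11.7 ± 1.35%. Hspa1a and Hspa1b stayed below 0.2% each in both genotypes. The summed level of the pool was 2657 ± 30.6 CPM in WT and 2262 ± 92.3 CPM in KO testes (SD, n = 3). In both genotypes the germ-cell HSP70s supplied most of this RNA.

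**Figure D2:**
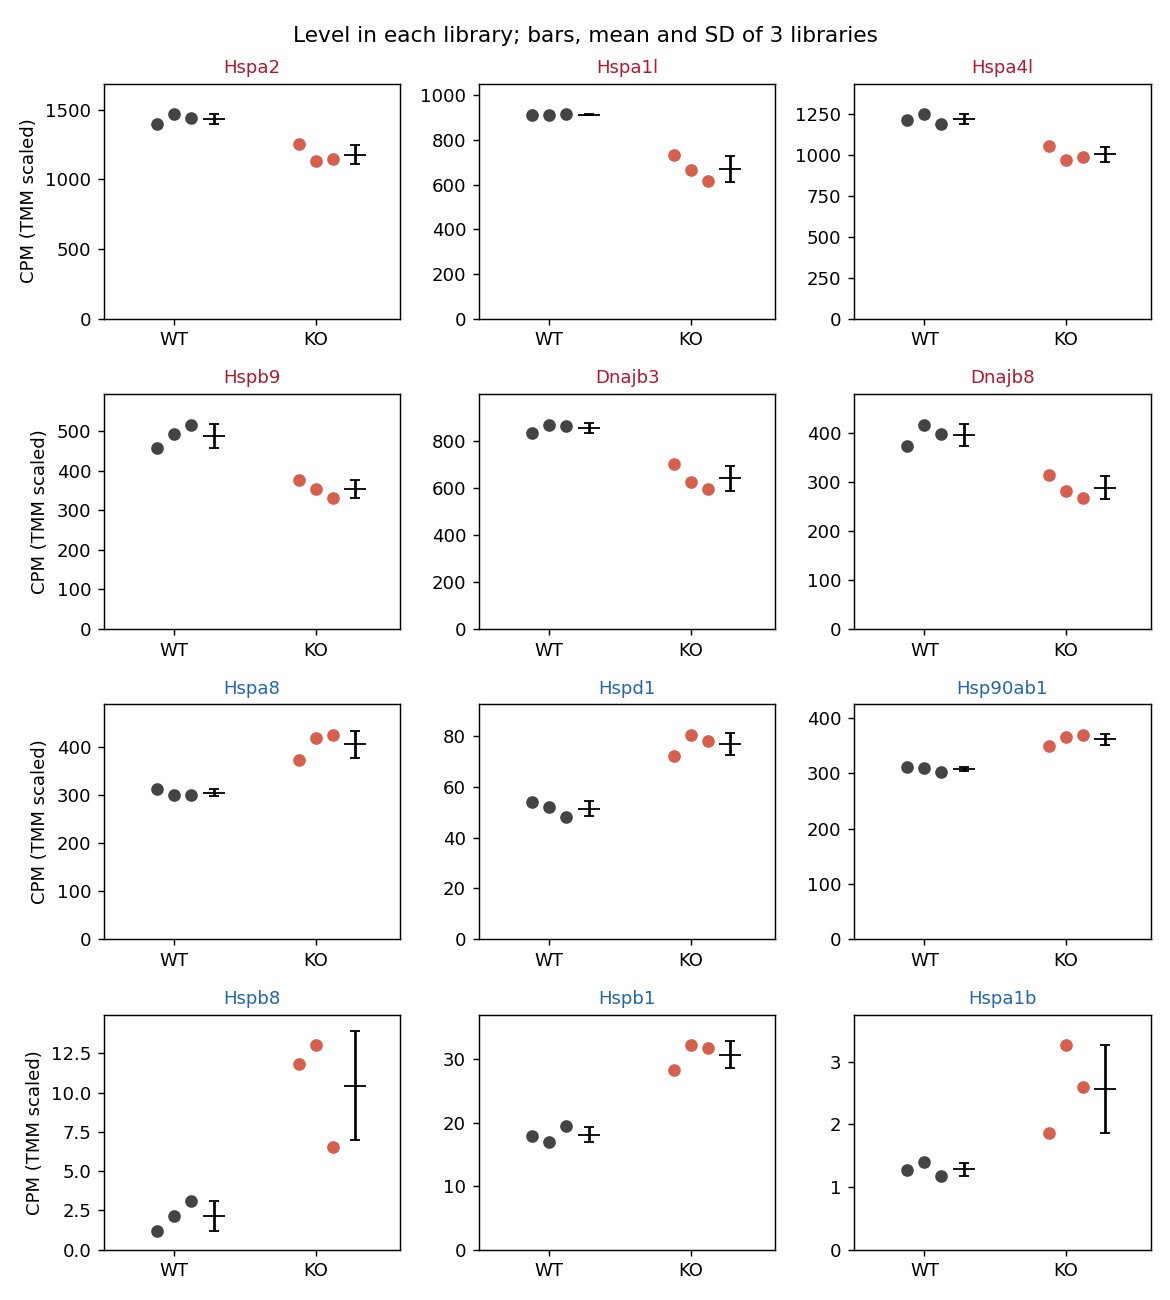
CPM in each library for 12 members, WT and KO, on linear axes from 0 (points, libraries 1 to 3; bars, mean and SD, n = 3). The upper 6 genes, from the testis-enriched list and all called lower, are lower in every KO library. The lower 6, from the inducible list and all called higher, are higher in every KO library. Members of these lists that did not pass are not shown, nor are Hsph1, Dnajb1 and Hspa4, inducible members that fell.

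Ratios of raw counts of related genes in one library remove the scaling, though not the uncertainty from shared sequence of Hspa1l, Hspa8 and Hsp90aa1. The Hspa2 to Hspa8 ratio was 4.46 to 4.90 in the WT libraries and 2.69 to 3.36 in the KO libraries, a difference of -0.70 on the log2 scale. Hspa1l to Hspa8 was 2.90 to 3.05 in WT and 1.45 to 1.96 in KO libraries, a difference of -0.86. Hspa4l to Hspa4, the widely expressed HSP110 relative, moved least, with 2.81 to 2.85 in WT and 2.67 to 2.69 in KO libraries, a log2 difference of -0.08. Hsp90aa1 to Hsp90ab1, by textbook name the inducible and constitutive HSP90 genes, was 8.43 to 8.63 in WT and 6.44 to 7.25 in KO libraries, a difference of -0.35. Hsp90aa1 was abundant in WT testes (2638 ± 71.4 CPM, SD, n = 3), so the inducible name does not describe its level here. All 4 ratios were lower in 3 of 3 pairs, and no KO library reached a WT library. In the exact two-sided permutation test over 6 libraries each had p = 0.1, adjusted p = 0.1 over the 4 ratios, which is the smallest p that 3 against 3 allows. KO1 lay nearest to the WT libraries in all ratios to Hspa8 and Hsp90ab1. A ratio shows unequal change of 2 genes and says nothing of which changed.

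**Figure D3:**
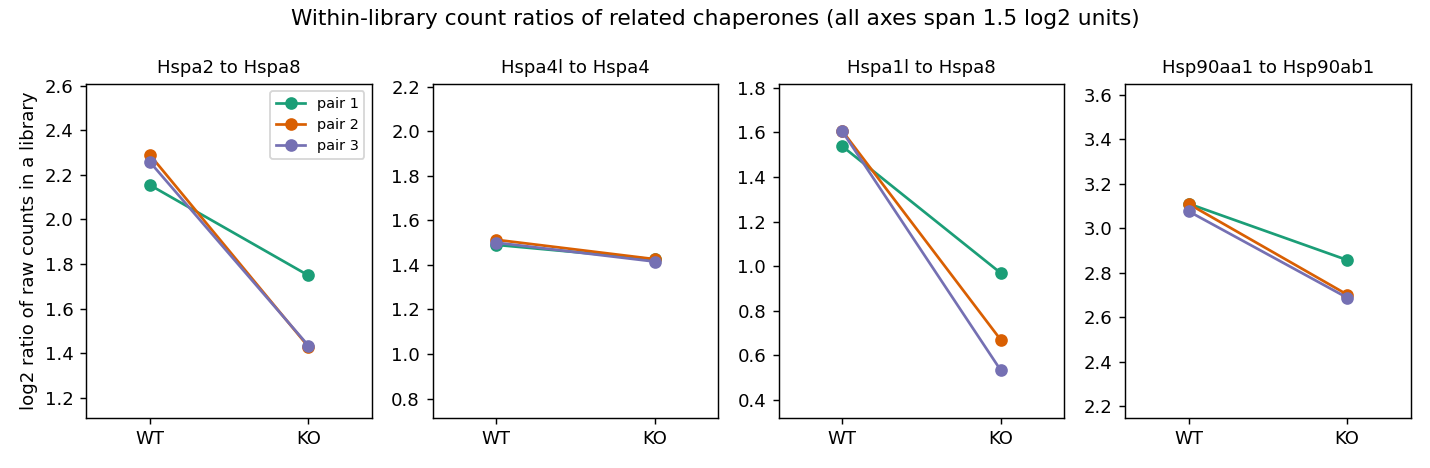
Log2 ratio of raw counts of 2 related chaperone genes in each library, lines joining littermate pairs, each panel spanning 1.5 log2 units. All lines fall from WT to KO, with differences of -0.06 to -0.09 for Hspa4l to Hspa4 and of -0.57 to -1.07 for Hspa1l to Hspa8.

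Hspa4 and Hsph1, the other HSP110 genes, also fell, though under library size alone neither passed (LFC -0.06 and -0.03). Hspa4 went from 430.6 ± 8.82 to 375.3 ± 16.3 CPM (SD, n = 3; LFC -0.20, SE 0.05) and Hsph1, or HSP105, from 63.5 ± 1.86 to 56.2 ± 1.70 CPM (SD, n = 3; LFC -0.17, SE 0.05). The decrease of Hsph1 did not pass the threshold without WT2, WT3 or KO3 (LFC -0.18, -0.15 and -0.17) or in DESeq2 with the replicate block (-0.21). Of other HSP70 relatives, Hspa12a, a distant member without the usual substrate-binding domain, rose (LFC 0.42, SE 0.10). Hspa9, the mitochondrial HSP70, Hspa12b, Hspa13 and Hspa14 did not pass the test, with LFCs from -0.10 to 0.11. In all, 3 of 13 genes of the HSP70 and HSP110 family rose (23.1%, near the 24.8% of all genes) and 5 fell (38.5%, beside 20.6%). Scaling by library size alone turned this to 5 that rose and 3 that fell, beside 36.5% and 8.66% of all genes.

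HSP90 gave the highest read number of any member. Hsp90aa1 had 2688, 2669 and 2556 CPM in WT and 2534, 2379 and 2381 CPM in KO libraries, an LFC of -0.12 (SE 0.05, adjusted p = 0.0905, edgeR's quasi-likelihood test) that missed the threshold. It passed it in DESeq2 with and without the replicate block (LFC -0.15) and without KO1 (-0.15), and the LFC was 0.02 under library size alone. Hsp90aa1 shares 47.5% of its 50-base windows with other genes, most with Gm12346, which has no row in the table. Hsp90ab1 rose from 311.4, 309.4 and 303.1 CPM in WT to 349.6, 365.6 and 369.6 CPM in KO libraries, an LFC of 0.23 (SE 0.05, adjusted p = 0.00201, same edgeR test).

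The small heat shock proteins held the steepest called increase among the members and, after the scarce Dnajc22, the steepest called decrease. Hspb8, a partner of the co-chaperone BAG3 in the removal of misfolded proteins, had 22, 34 and 55 counts in the WT libraries and 229, 235 and 123 counts in the KO libraries. All KO libraries were above the WT libraries, KO3 by the least. The LFC was 2.29 (SE 0.32, adjusted p = 0.000237, edgeR's quasi-likelihood test). Hspb1, or HSP25, had 17.9, 17 and 19.4 CPM in WT and 28.2, 32.1 and 31.7 CPM in KO libraries, an LFC of 0.76 (SE 0.08, adjusted p = 5.3e-05, same edgeR test). It shares 50.1% of its 50-base windows with other genes, most with the pseudogene Hsp25-ps1, which has no row in the table. Hspb9, a small heat shock protein of the testis, had 457.2, 493.7 and 517.1 CPM in WT and 377.6, 354.4 and 330.9 CPM in KO libraries, an LFC of -0.47 (SE 0.06, adjusted p = 0.000199, same edgeR test). It lies at chr11:100713850-100714575, 373 kb from Mlx. Hspb6, Hspb7 and Hspb11 did not pass the test, with LFCs from -0.11 to 0.17.

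The mitochondrial folding pair rose together. Hspd1, or HSP60, had 54, 52.1 and 48.3 CPM in the WT libraries and 72.1, 80.4 and 77.9 CPM in the KO libraries. The groups were well separated, with an LFC of 0.58 (SE 0.06, adjusted p = 4.5e-05, edgeR's quasi-likelihood test). Hspe1, or HSP10, had 14.3, 14.3 and 15.7 CPM in WT and 20.8, 22 and 20.6 CPM in KO libraries, an LFC of 0.52 (SE 0.08, adjusted p = 0.000482, same edgeR test). Their first exons overlap by 112 bases on opposite strands. Hspd1 shares 42.1% and Hspe1 22.8% of their 50-base windows with other genes. Those sharing most, Hspd1-ps3 and AC117239.2, have no row in the table. Hspa9, the HSP70 of the same compartment, did not pass the test (LFC -0.08, SE 0.04).

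In the DNAJB family, which delivers clients to HSP70, 11 of 13 tested genes fell (84.6%) and 0 rose in edgeR's quasi-likelihood test. Of all genes 20.6% fell and 24.8% rose. The family's counts were the same at an unadjusted p under 0.05 and in DESeq2. Under library size alone 6 of the 13 fell and 0 rose, beside 8.66% and 36.5% of all genes. Dnajb1 (LFC -0.06) and Dnajb7 (-0.10) were among the calls lost. The largest decreases were those of germ-cell members. Dnajb8 had 373.7, 417.5 and 397.7 CPM in WT and 314.6, 281.8 and 268.5 CPM in KO libraries, an LFC of -0.46 (SE 0.07, adjusted p = 0.000284, same edgeR test). Other genes share 35.1% of its 50-base windows, most of all the antisense 1700031F10Rik, which has no row in the table. Dnajb3 had 831.3, 867.7 and 862.5 CPM in WT and 700, 624.7 and 595.7 CPM in KO libraries, an LFC of -0.42 (SE 0.06, adjusted p = 0.000367, same edgeR test). In both genes KO1 lay nearest to the WT libraries, and neither gene's groups overlapped. Dnajb14 (LFC -0.40, SE 0.06) and Dnajb5 (LFC -0.40, SE 0.10), which are not known for the testis, fell by as much. Dnajb7, a testis gene, fell less (LFC -0.24, SE 0.07), as did Dnajb1, the inducible HSP40 (LFC -0.20, SE 0.06). The call of Dnajb7 was lost without WT1, KO2 or KO3 (LFC -0.19, -0.21 and -0.19) and that of Dnajb1 without each library but KO1 (LFC -0.20 to -0.15). The other 5 called members of the family had LFCs from -0.30 to -0.19. Dnajb11, a co-chaperone of the endoplasmic reticulum, did not pass (LFC -0.08, SE 0.05; 0.06 under library size alone). Dnajb13, a protein of the sperm flagellum, had overlapping groups (LFC -0.13, SE 0.07) and passed the threshold only without KO1 (LFC -0.18), with an LFC of 0.01 under library size alone.

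DNAJC proteins share the J-domain and little else. Of 28 genes, 3 rose (10.7%, beside 24.8% of all genes) and 9 fell (32.1%, beside 20.6%). The direction of these counts depended on the scaling. By library size alone 8 rose and 3 fell, beside 36.5% and 8.66% of all genes. Dnajc5b, a cysteine-string protein of the testis, fell from 221.2, 222.2 and 219.7 CPM in the WT libraries to 179.1, 169.8 and 171.3 CPM in the KO libraries (LFC -0.35, SE 0.05, adjusted p = 0.000158, edgeR's quasi-likelihood test). Its widely expressed relative Dnajc5, named after its values were seen, rose from 42.5 ± 1.83 to 55.6 ± 1.42 CPM (SD, n = 3; LFC 0.39, SE 0.06). The testis relative Dnajc5g had 186.8, 125.6 and 129.8 CPM in WT and 144.6, 103.9 and 108.7 CPM in KO libraries. Within each genotype the library numbered 1 was the highest, and the groups overlapped (LFC -0.31, SE 0.15). With the pair as a replicate block Dnajc5g passed the threshold in edgeR (LFC -0.30) and in DESeq2 (-0.33), and also without KO1 (-0.47). Dnajc25 had 110, 97 and 112 counts in WT and 251, 144 and 147 counts in KO libraries, with KO1 far above the other KO libraries (LFC 0.65, SE 0.19), and was not past the threshold in DESeq2 with the replicate block (0.59). Without KO1 its LFC was 0.37. Dnajc22 was scarce, with 15, 34 and 22 counts in WT and 12, 11 and 13 counts in KO libraries. Its LFC of -1.09 (SE 0.38) did not pass the threshold in DESeq2 (-1.15, or -1.05 with the replicate block), under library size alone (-0.95), nor without WT2 (-0.66), WT3 (-1.17), KO1 (-1.06), KO2 (-1.06) or KO3 (-1.14). The third that rose was Dnajc1 (LFC 0.25, SE 0.08), also named after its values were seen. Its call was lost in DESeq2 (0.22, also 0.22 with the replicate block) and without WT1 (0.26), WT2 (0.22), KO2 (0.25) or KO3 (0.20). The other 7 called members fell, with LFCs from -0.29 to -0.17. Among DNAJA genes 1 of 4 fell (25.0%, near the 20.6% of all genes), Dnaja4 (LFC -0.22, SE 0.05). Scaled by library size alone, 3 of the 4 rose and 0 fell. Other genes share 42.7% of the 50-base windows of Dnaja4, Wdr61 the most. Dnaja1, an HSP40 of most cells, had 255.3, 254.2 and 233.7 CPM in WT and 253.1, 253.8 and 241.7 CPM in KO libraries, with an LFC of 0.01 (SE 0.05) that took the opposite sign in DESeq2 (-0.02) and without WT3 (-0.03).

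Of 8 CCT genes 7 fell (87.5%, beside 20.6% of all genes) and 0 rose (beside 24.8%) in edgeR's quasi-likelihood test. The CCT counts were the same at an unadjusted p under 0.05 and in DESeq2, and the median LFC was -0.19. Under library size alone the median was -0.05, with Cct7 and Cct8l1 lower, Cct8 higher and the other calls lost. Of all genes 8.66% fell and 36.5% rose under that scaling. Cct8l1, a testis relative of Cct8, fell most, from 120.5, 114.2 and 105.4 CPM in the WT libraries to 89.9, 87.6 and 85.3 CPM in the KO libraries (LFC -0.37, SE 0.06). Cct6b, the testis form of the zeta subunit, fell from 331.3, 336.4 and 339.2 CPM to 310.2, 269.2 and 265.7 CPM (LFC -0.25, SE 0.06). Of the subunits of the general ring, Cct7 fell from 743.8 ± 14.7 to 617.4 ± 27.1 CPM (SD, n = 3; LFC -0.27, SE 0.05). Cct4 (LFC -0.19, SE 0.05), Cct2 (-0.18, SE 0.05), Cct5 (-0.17, SE 0.05) and Cct3 (-0.15, SE 0.05) fell less. Cct2 lost its call without WT1, WT2, KO2 or KO3 (LFC -0.17 to -0.15), Cct5 without WT2, KO2 or KO3 (-0.16 to -0.15) and Cct3 without any library but KO1 (-0.16 to -0.12). Cct3 also lost it in edgeR with the replicate block (-0.15). Cct8 had overlapping groups (LFC -0.04, SE 0.05), with the opposite sign under library size alone (0.10). Tcp1, the alpha subunit, which the symbol rule does not take in, fell like the others (LFC -0.28, SE 0.06).

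Of the heat shock factors and Hsf2bp 4 were tested, and Hsf2 and Hsf5 fell (50.0%, beside 20.6% of all genes). Under library size alone both calls were lost (LFC -0.07 and -0.11). Hsf1, the factor of the stress response, had 35.1, 34 and 32.4 CPM in the WT libraries and 31, 29.9 and 30.6 CPM in the KO libraries. Its LFC of -0.15 (SE 0.06, adjusted p = 0.0786, edgeR's quasi-likelihood test) missed the threshold and passed it with DESeq2's size factors in edgeR (-0.17). Hsf2, which acts in spermatogenesis, fell from 65.4 ± 1.85 to 56.5 ± 3.38 CPM (SD, n = 3; LFC -0.21, SE 0.06), a call lost without WT2 or KO3 (LFC -0.19 and -0.16). Hsf5, a factor of spermatocytes, fell from 301.3, 330.8 and 319.3 CPM to 282.2, 266.9 and 253.4 CPM (LFC -0.25, SE 0.06). Hsf2bp, a meiotic recombination protein, had an LFC of -0.12 (SE 0.05) that missed the threshold. Hsf4, with 1 to 3 counts a library in both genotypes, was near the detection floor.

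Ordered by level per kb of annotated exon, testis-enriched members stood at the top. They took 7 of the first 8 places among all 84 members in WT testes. Dnajb3 was first at 812 ± 18.7 CPM per kb (SD, n = 3), followed by Hspb9 at 674 ± 41.6 and Hsp90aa1 at 671 ± 18.2, whose WT libraries overlapped. Hspa2 (543 ± 13.7), Hspa1l (369 ± 1.01), Dnajb8 (281 ± 15.6), Cct6b (179 ± 2.13) and Dnajc5b (176 ± 1.02 CPM per kb) came next. In the KO libraries Hsp90aa1 was first at 619 ± 22.6 CPM per kb, ahead of Dnajb3 at 609 ± 51.2 and Hspb9 at 488 ± 32.2 (SD, n = 3), with overlap between Hsp90aa1 and Dnajb3. Hspa4l, behind only Hsp90aa1 and Hspa2 by reads, was in place 16 by this measure, since the union of its annotated exons is 11792 bases long. Hsp90ab1 went from place 17 in WT to place 11 in KO testes.

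**Figure D4:**
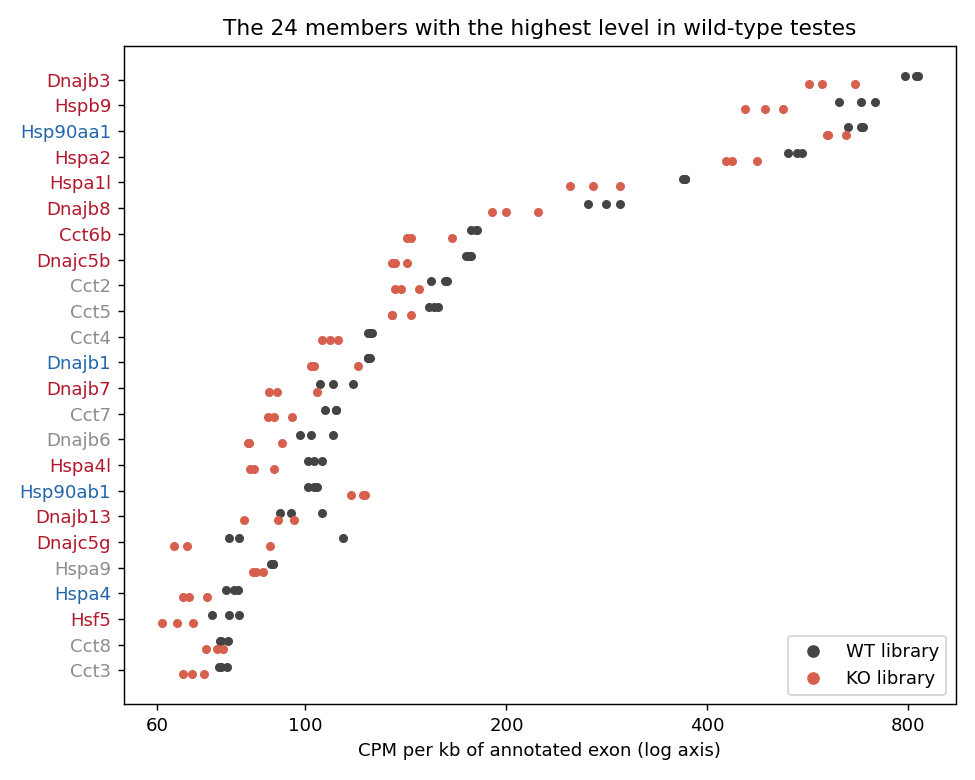
CPM per kb of annotated exon, on a log axis, in each WT and KO library for the 24 members with the highest WT level (gene names in red, testis-enriched list; in blue, inducible list). KO libraries lie to the left of WT libraries for most genes and to the right for Hsp90ab1.

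Set beside each other as lists, the testis-enriched and the inducible members differed in how they moved. Both lists were chosen with earlier results of these data known, so the comparison is a description and no test. Of 14 testis-enriched members 11 fell (78.6%, beside 20.6% of all genes) and 0 rose (beside 24.8%) in edgeR's quasi-likelihood test. Also 0 rose at an unadjusted p under 0.05 and in DESeq2. The median LFC was -0.30, with a range from -0.47 to -0.12. Under library size alone 8 of the 14 fell and 0 rose, beside 8.66% and 36.5% of all genes. Those that did not pass were Dnajb13, Dnajc5g and Hsf2bp. Of 13 inducible members 7 rose (53.8%, beside 24.8% of all genes), namely Hspb8, Hspa1b, Hspb1, Hspd1, Hspe1, Hspa8 and Hsp90ab1. Of these, Hspa8 and Hsp90ab1 are the constitutive genes of their families. Hsph1, Dnajb1 and Hspa4, 3 of the 13, fell (23.1%, near the 20.6% of all genes). The median LFC of the list was 0.41. Hspa1a, Hsp90aa1 and Dnaja1 did not pass. The inducible list thus did not move as a block: its HSP60, HSP10 and small heat shock protein members rose with Hspa8, Hspa1b and Hsp90ab1, while its HSP110 members and Dnajb1 fell. Under library size alone 9 of the 13 rose and 0 fell, beside 36.5% and 8.66% of all genes. Of the 53 tested members in neither list 4 rose (7.55%) and 22 fell (41.5%). Here too library size alone reversed the balance, with 14 that rose and 7 that fell.

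Cell type markers moved in the same libraries, in which 24.8% of all genes rose and 20.6% fell. Of the germ cell lists, 8 of 12 spermatocyte, 10 of 10 round spermatid and 13 of 13 elongating spermatid markers fell, with median LFCs of -0.16, -0.27 and -0.53, and of 12 spermatogonial markers 2 rose and 1 fell (median 0.06). Scaled by library size alone, 1 of 12 spermatocyte, 5 of 10 round spermatid and 13 of 13 elongating spermatid markers fell. Their medians were then -0.02, -0.13 and -0.39. Of the 12 spermatogonial markers 3 rose and 0 fell under that scaling (median 0.20). Of all genes 36.5% rose and 8.66% fell under it. In the reported fit the median of -0.30 of the testis-enriched chaperones lay between those of round and elongating spermatids. Summed levels of the spermatocyte markers were 2061 to 2117 CPM in WT and 1811 to 1896 in KO libraries, those of round spermatids 2896 to 2988 and 2226 to 2439 CPM, and those of elongating spermatids 29300 to 30340 and 18120 to 21830 CPM. In the somatic lists 11 of 11 Sertoli, 9 of 9 Leydig, 10 of 11 macrophage, 3 of 7 endothelial and 4 of 6 peritubular myoid markers rose (median LFCs 0.65, 1.02, 1.28, 0.62 and 0.44), and 1 macrophage and 1 peritubular myoid marker fell. Sertoli markers summed to between 927.6 and 980.4 CPM in WT and between 1422 and 1708 CPM in KO libraries, and Leydig markers to between 1007 and 1043 and between 2024 and 2636 CPM. Macrophage markers summed to 458.4 to 475 CPM in WT and 472.5 to 512.6 CPM in KO libraries, endothelial markers to 35.9 to 45.9 and 52.3 to 59.8 CPM, peritubular myoid markers to 310 to 369.5 and 308.6 to 324.9 CPM, and spermatogonial markers to 178.5 to 186.2 and 192.3 to 206.8 CPM. Most of the macrophage sum was Aif1 (mean 376.6 CPM in WT, 299.1 in KO) and most of the myoid sum Actg2 (267.4 and 204.4 CPM). These were the markers of their lists that fell, so the sums do not show the rise of the other called markers. No marker was at 0 in all libraries. The part of cell makeup in the chaperone values was not tested.

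**Figure D5:**
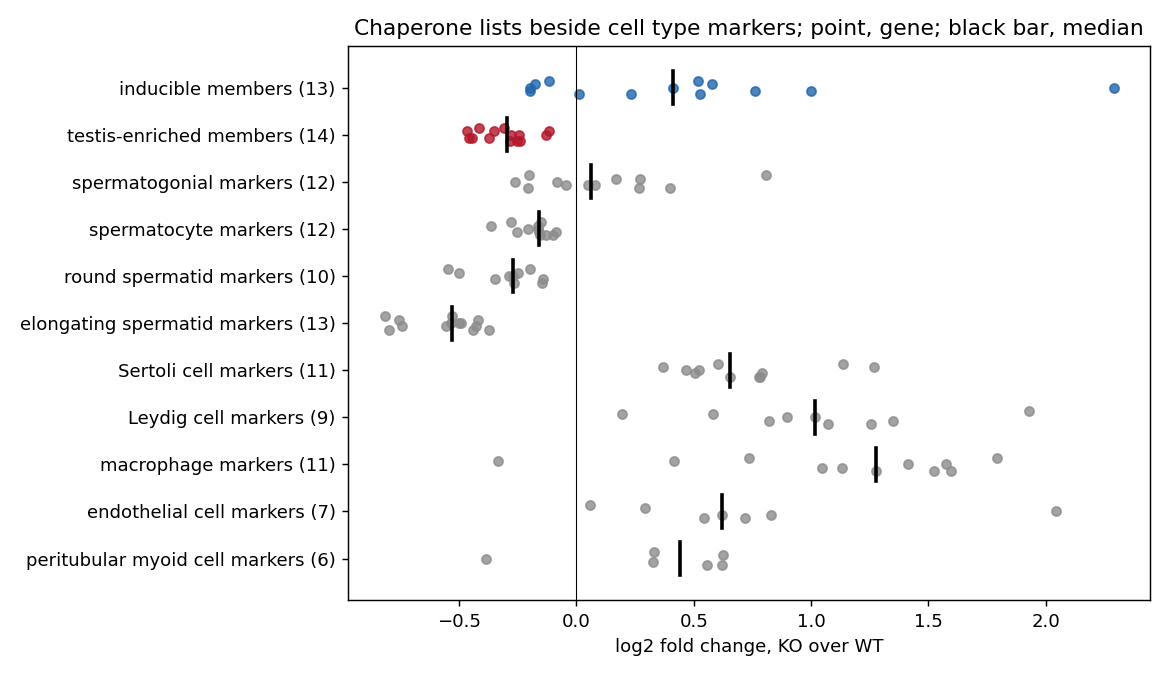
Log2 fold change, KO over WT, of each gene in the inducible and testis-enriched chaperone lists and in 9 lists of cell type markers (point, gene; black bar, median; genes in brackets). The testis-enriched members lie between -0.47 and -0.12, within the range covered by the spermatocyte and spermatid markers together, and the inducible members reach from -0.20 to 2.29.

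Partners of the chaperones that the symbol rule leaves out, 44 genes with a row, were mixed. Of these 4 rose (9.09%, beside 24.8% of all genes) and 14 fell (31.8%, beside 20.6%), with a median LFC of -0.05. By library size alone 11 rose and 9 fell, beside 36.5% and 8.66% of all genes, and the median was 0.09. Fkbp5, an HSP90 co-chaperone and textbook glucocorticoid target, rose from 50.4 ± 9.31 to 90.4 ± 11.8 CPM (SD, n = 3; LFC 0.84, SE 0.12), and Bag2, an HSP70 nucleotide exchange factor, from 8.57 ± 0.472 to 12.6 ± 1.42 CPM (LFC 0.56, SE 0.11). The phosducin-like CCT helpers Pdcl3 (LFC 0.54, SE 0.14) and Pdcl (0.32, SE 0.11) rose too, while the germ-cell Pdcl2 fell (-0.29, SE 0.06). The exchange factors and relatives Bag1 (LFC -0.39, SE 0.05), Bag5 (-0.30, SE 0.05) and Bag6 (-0.32, SE 0.06) fell, as did the disaggregase Clpb (-0.50, SE 0.08). Bag3, the partner of Hspb8, had an LFC of 0.08 (SE 0.06), and Stip1, which links HSP70 to HSP90, of -0.05 (SE 0.06), and neither passed. Of 8 relatives in the endoplasmic reticulum and mitochondria 2 fell (25.0%, near the 20.6% of all genes). In this group 0 rose (also 0 at an unadjusted p under 0.05 and in DESeq2, but 2 under library size alone, where 2 fell). Hspa5 had an LFC of -0.02 (SE 0.05) and Hsp90b1 of -0.06 (SE 0.05).

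The libraries held 16674678 to 19742726 counts, and counts within a genotype differed by more than sampling noise, KO1 standing farthest from the other KO libraries. Without KO1, 11 members rose and 39 fell. Mlx itself had 128, 96 and 98 counts in the libraries labelled WT and 94, 109 and 102 counts in those labelled KO. The difference did not pass the test (LFC -0.18, SE 0.14). A gene count may take in exons that the deletion left in place, and counts by exon were not examined. The count therefore does not check the labels, and why the genotypes lay so near was not tested.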

How the data were processed

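RNA from whole testes of 3 WT and 3 KO males was sequenced as paired reads of 50 bases. The authors aligned the reads to mm10 with TopHat and deposited raw counts per gene symbol and library. The counting tool, annotation and strand setting are not given in the sources used here. The same table holds the authors' own comparison (mean, log2 fold change with its error, statistic and p-values), which was not used. The ChIP-Seq samples were not analysed here.

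Counts were fitted in edgeR 4.0.16 (R 4.3.3) over all genes, with the default filter (minimum count 10), TMM scaling, genotype as the only term, the two-sided quasi-likelihood test and Benjamini-Hochberg adjustment, threshold 0.05. CPM were computed from the deposited counts. Ratios were compared by an exact permutation test. Positions, exon lengths and shared 50-base windows come from GENCODE M21 (mm10), in which all 84 members were found. Library totals ranged from 16674678 to 19742726. Replicate numbers mark littermate pairs according to the paper and the labels. Deviations from group means correlated at 0.145, 0.0363 and 0.121 within pairs and at most at 0.033 otherwise. Alternatives were DESeq2 1.42.0, other scalings and filters, the pair as a replicate block, and each library left out. Code was tested on simulated data.

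The members and lists were chosen with earlier results of these data known. Named genes are Hspa2, Hspa1l and Hspa4l, the genes of the ratios, the inducible and testis-enriched lists, every CCT gene, Hsf1, Hsf2 and Hsf4, and, of called members that moved alike in all 3 pairs, those with the 8 greatest rises and the 8 greatest falls. A Cct6b to Cct6a ratio was planned, and Cct6a was not analysed here.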

Additional observations from a re-analysis of the deposited data

How the results depend on the processing

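The 11 increases and 36 decreases ranged from 10 to 11 and from 25 to 39 when a library was left out. Library size alone gave 23 and 15. DESeq2 gave 10 and 36, or 8 and 34 with the replicate block, which in edgeR gave 11 and 38. In the paired mean with the replicate block, the ratios differed by -0.70 (Hspa2 to Hspa8), -0.86 (Hspa1l to Hspa8), -0.08 (Hspa4l to Hspa4) and -0.35 (Hsp90aa1 to Hsp90ab1), as in the unpaired mean. Under library size alone 17 members below 0 turned above it, 0 of them called in the reported fit and 3 (Cct8, Dnaja2 and Dnajc10) called higher under that scaling. Of the genes named by rule these were Hsp90aa1 (0.0212), Dnajb13 (0.0107), Hsf2bp (0.0234) and Cct8 (0.101). Dnaja1 turned in DESeq2 (-0.02, or -0.0192 with the replicate block), with DESeq2's size factors in edgeR (-0.0156) and without WT3, the values with a library left out running from -0.0319 to 0.0387. Dnaja1 was not called in the reported fit. Of the settings of single genes other than the germ-cell members, 450 kept direction and side of the threshold, 48 lost a call and 11 gained one. In edgeR the replicate block lost the call of Cct3 and gained Dnajc2, Dnajc5g and Dnajc6. In DESeq2 with the replicate block the calls lost were Dnajb12, Dnajc1, Dnajc22, Dnajc25, Dnajc28, Hspa1b and Hsph1, and Dnajc5g and Hsp90aa1 were gained. For why a call was lost, the cause was not tested. The planned Cct6b to Cct6a ratio was not run. Depth limits Hspa1a, Hspa1b, Hspb8 and Dnajc22, which had under 60 counts in each WT library.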

Other observations

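Dnajc2, a ribosome-associated J-domain protein also called Zrf1, had 5805, 5933 and 6397 counts in the WT libraries and 5996, 3562 and 6253 counts in the KO libraries. KO2 alone was low, and the gene did not pass the test (LFC -0.32, SE 0.15, edgeR's quasi-likelihood test). It passed the threshold with the pair as a replicate block in edgeR (LFC -0.34) and without KO3 (-0.45). It was named after its values were seen. Dnajc7, a co-chaperone of HSP70 and HSP90 that fell (LFC -0.17, SE 0.05), and Hspb9 lie 467 and 373 kb from Mlx on chromosome 11.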
